A study of Drosophila melanogaster with 6 samples.

Results

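The odorant-binding protein genes of Drosophila melanogaster were examined in whole dissected brains. The members are the rows of the deposited table whose gene symbol begins with Obp and a digit, 49 of 17483 genes. All libraries share 1 strain and age, w1118 (a laboratory strain with white eyes) at 15 days. In 3 libraries the flies had been kept on normal food, and in the other 3 on normal food to which the polyamine spermidine was added, called supplemented food here and spermidine food in the figures. Dose, sex and the number of brains in a library are not in the labels, which also do not say that replicates came from separate cultures. The p-values therefore rest on differences among these libraries alone, and the spread within a food may be technical. Levels are FPKM, fragments scaled by transcript length and library depth, which allows genes of different length to be compared.

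Odorant-binding proteins are small secreted proteins that carry hydrophobic molecules through watery fluid. The best studied are released by support cells of olfactory and taste hairs, where they bind odorants and pheromones around the receptor neurons. Others are found outside the chemical senses, in glia, fat body and haemolymph, and in seminal fluid. The proteins of these 49 genes, as the current annotation gives them, have from 117 to 259 residues with a median of 151. Obp83cd and Obp83ef, with 242 and 245 residues, belong to the double-domain type, in which 2 binding domains are joined in 1 chain.

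The deposited means of normalized counts summed to 48052547 on normal food and 47904049 on supplemented food. These are scaled values and not numbers of reads, and no depth per library is given. For the tissue label, all 11 neuron markers and all 14 glia markers passed the filter on low values described below. Markers of other tissues were uneven. The summed FPKM of 16 photoreceptor and eye genes was 1689, 11286 and 7230 on normal food and between 10453 and 14527 on supplemented food, so the lowest value belonged to normal food replicate 1. In bulk samples fewer cells of a type and less RNA per cell cannot be told apart.

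The family's RNA in the brain was dominated by 1 gene. Obp44a (FBgn0033268, 2R, 8134170 to 8135315, minus strand), a glial fatty-acid-binding member, held 2454, 1706 and 2288 FPKM on normal food and 2635, 2404 and 2568 on supplemented food. It ranked 11th of all 17483 rows by its mean on normal food. Its share of the summed FPKM of the 49 members was between 87.3% and 88.1% on normal food and between 82.8% and 83.6% on supplemented food. Obp99c came next with 131 ± 21.6 FPKM on normal food, followed by Obp18a with 86.1 ± 13.9 FPKM (SD, n = 3 each). The normal food libraries of these 3 genes did not overlap with each other, nor did those of Obp18a overlap with those of Obp56d, the next in order.

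Below them the order of levels on normal food was less firm. Obp56d, Obp19d, Obp99a and Obp8a had means of 17, 13.7, 9.57 and 9.38 FPKM, and each overlapped with its neighbour in that order. Obp8a and Obp56a (7.13 FPKM) did not overlap with each other, and neither did Obp56a and Obp49a (3.64 FPKM). From Obp49a downwards every member overlapped with the next among the genes tested. In all, 3 members were at or above 10 FPKM in every library, 14 at or above 1 FPKM in every library, and 27 below 1 FPKM in every library.

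**Figure D1:**
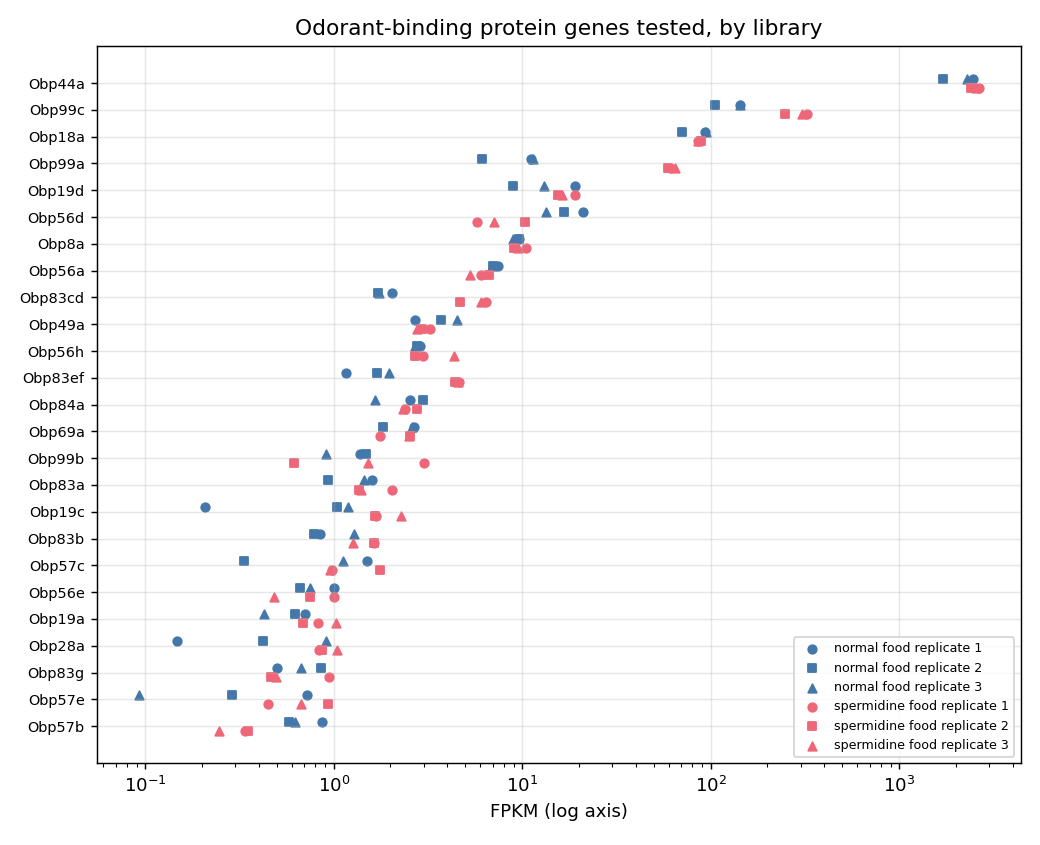
FPKM on a log axis (x) of the 25 tested odorant-binding protein genes (y, ordered by mean), with 1 point per library, blue for normal food and red for spermidine food, and marker shapes for replicates 1, 2 and 3. Obp44a lies at 1706 FPKM or above in every library, and the red points of Obp99a, Obp99c, Obp83cd and Obp83ef lie to the right of all their blue points.

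Much of the family was at or near 0 in the brain. A filter of at least 0.5 FPKM in at least 3 of the 6 libraries left 25 members, 51.0% of the family, against 59.3% of all rows. Obp57b passed it through its normal food libraries alone, and no member passed through supplemented food alone. Of the 24 members below the filter, Obp46a, Obp50a, Obp50c and Obp50d were listed at 0 in all 6 libraries. The other 20 were Obp19b, Obp22a, Obp47a, Obp47b, Obp50e, Obp51a, Obp56b, Obp56c, Obp56f, Obp56g, Obp56i, Obp57a, Obp58b, Obp58c, Obp58d, Obp59a, Obp73a, Obp85a, Obp93a and Obp99d. None of these had a mean over the 6 libraries above 0.317 FPKM, and the highest single value was 0.664 FPKM, in Obp85a. They include Obp22a, Obp51a, Obp56f, Obp56g and Obp56i, whose proteins are known from seminal fluid, and Obp59a, which acts in humidity sensing. Changes by food were not tested in these 24 genes.

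The comparison of supplemented food with normal food asked how supplementation changes the brain transcriptome. Among the members tested, 4 rose and none fell, while 21 did not pass the test. The 4 were Obp99a, Obp99c, Obp83cd and Obp83ef. Without supplemented food replicate 3 the count was 1, Obp99a, and without normal food replicate 1, the library with the lowest eye genes, it was 4. They are 16.0% of the members tested, whereas 3.21% of all 10366 genes tested rose and 1.52% fell (limma on log2(FPKM + 1), Benjamini-Hochberg adjusted p under 0.05 over all genes). In both directions together, 4.74% of all genes passed. At an unadjusted p under 0.05, 6 members were higher and 3 lower (36.0% in both directions together), and 2183 of all genes passed (21.1%, also in both directions together). The median log2 fold change was 0.19 over the 25 members and 0.02 over all genes tested, and 18 members (72.0%) had a positive value, against 57.6% of all genes tested. Library values of the 2 foods did not overlap in 8 members, 5 of them higher (20.0%) and 3 lower (12.0%), which lies close to the 17.2% and 10.8% of all genes tested. The 3 lower members, in this count and in that by unadjusted p, include Obp57b, which passed the filter only through the food where it is high. Neither its p-value nor its separation is therefore evidence of a change.

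**Figure D2:**
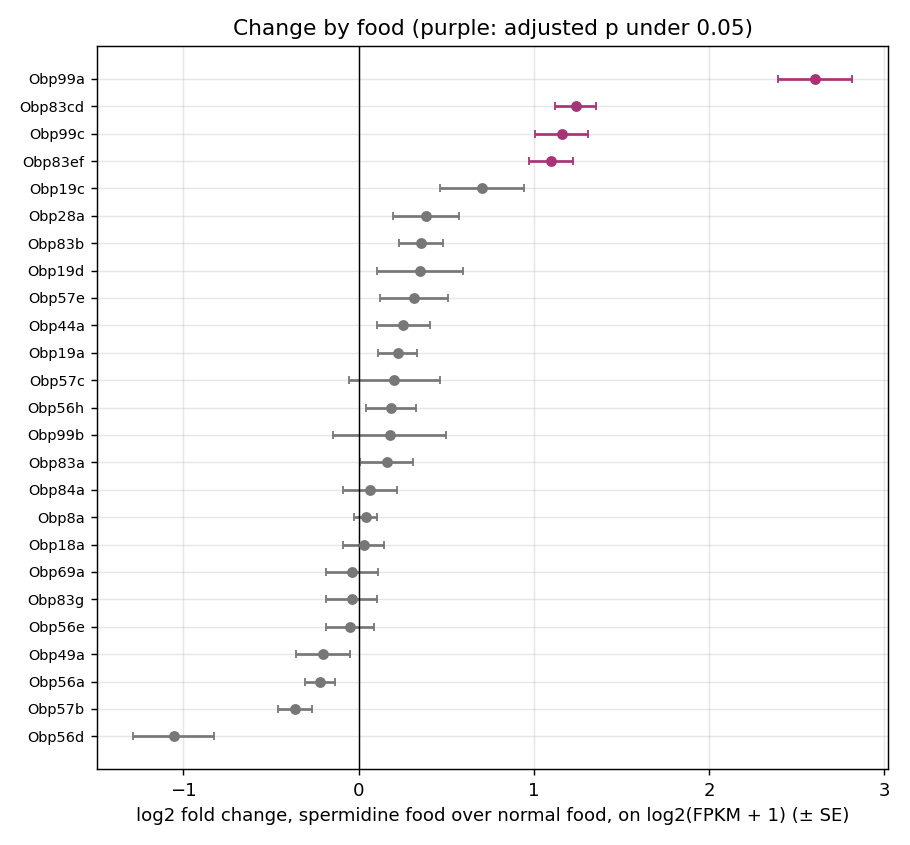
Log2 fold change on the log2(FPKM + 1) scale (x, spermidine food over normal food, bars are the SE from limma) of the 25 tested members (y). Obp99a stands at 2.61, the other 3 members past the threshold lie between 1.10 and 1.24, and Obp56d is the lowest at -1.06.

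Obp99a had the largest change in the family. This gene (FBgn0039678, 3R, 29671657 to 29672334, plus strand) encodes a small member of 142 residues. It had 11.2, 6.15 and 11.4 FPKM on normal food, against 60.6, 59.3 and 64.4 FPKM on supplemented food. The 3 supplemented food values lay close together, far above every normal food value, of which replicate 2 was the lowest. The mean went from 9.57 ± 2.96 to 61.4 ± 2.63 FPKM (SD, n = 3 each), a ratio of 6.42 and a log2 fold change of 2.61 ± 0.21 (SE; limma, adjusted p = 0.0051). It was the 1 member that passed the test without each library in turn, at an adjusted p of at most 0.045.

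Obp99c (FBgn0039682, 3R, 29685736 to 29689311, minus strand) lies 13401 bases further along the chromosome. Its values were 144, 106 and 143 FPKM on normal food and 324, 248 and 303 FPKM on supplemented food. Replicate 2 was the lowest library of each food, and the foods did not overlap. The mean rose from 131 ± 21.6 to 292 ± 39.1 FPKM (SD, n = 3 each), by 1.16 ± 0.15 on the log2 scale (SE; limma, adjusted p = 0.015). The call ended when supplemented food replicate 1 or replicate 3 was left out, at limma adjusted p of 0.054 and 0.085 and log2 fold changes of 1.08 and 1.13.

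No gene between Obp99a and Obp99c passed the test. The 5 genes there are ppk19, Bub3, Cap-D2, CG7582 and Gycalpha99B. Of these, 4 were tested (limma, none at an unadjusted p under 0.05 and none by the authors' p-values), with log2 fold changes between -0.03 and 0.03. Gycalpha99B, a subunit of soluble guanylyl cyclase, is a near neighbour whose last 23 exon bases overlap those of Obp99c on the opposite strand, with 160.3 ± 2.57 FPKM on normal food and 164 ± 10.9 FPKM when supplemented (n = 3 each, SD).

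Obp99b and Obp99d form a second pair further along 3R. Obp99b, known from fat cells of the male head, had 1.38, 1.48 and 0.915 FPKM on normal food and 3.0, 0.613 and 1.53 FPKM on supplemented food. The supplemented food libraries spread on both sides of the normal food values (log2 fold change 0.18 ± 0.32, SE; limma, adjusted p = 0.803). Obp99d was at 0 in 4 of the 6 libraries.

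Obp83cd and Obp83ef, the double-domain members, rose together. Obp83cd (FBgn0046878, 3R, 6108134 to 6109733, plus strand) had 2.04, 1.72 and 1.74 FPKM on normal food and 6.44, 4.67 and 6.06 FPKM on supplemented food. Obp83ef (FBgn0046876, 3R, 6109642 to 6111034, minus strand) had 1.16, 1.69 and 1.97 FPKM on normal food and 4.62, 4.39 and 4.57 FPKM on supplemented food. In both genes every supplemented food library was more than 2 FPKM above every normal food library. The log2 fold changes were 1.24 ± 0.12 for Obp83cd (limma, adjusted p = 0.0072) and 1.10 ± 0.12 for Obp83ef (SE; limma, adjusted p = 0.011). Both calls ended without supplemented food replicate 3, at adjusted p = 0.051 for Obp83cd and 0.07 for Obp83ef.

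The annotated spans of these neighbours overlap by 92 bases, all of them exonic, at the ends where their transcripts stop. They are the 1 pair of members that overlap. Obp83g, which lies 636 bases from Obp83ef on the same strand, had 0.676 ± 0.18 FPKM on normal food and 0.637 ± 0.27 on supplemented food (n = 3 each, SD; limma, adjusted p = 0.905). The nearest tested gene on the other side, Gasp, did not pass either.

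**Figure D3:**
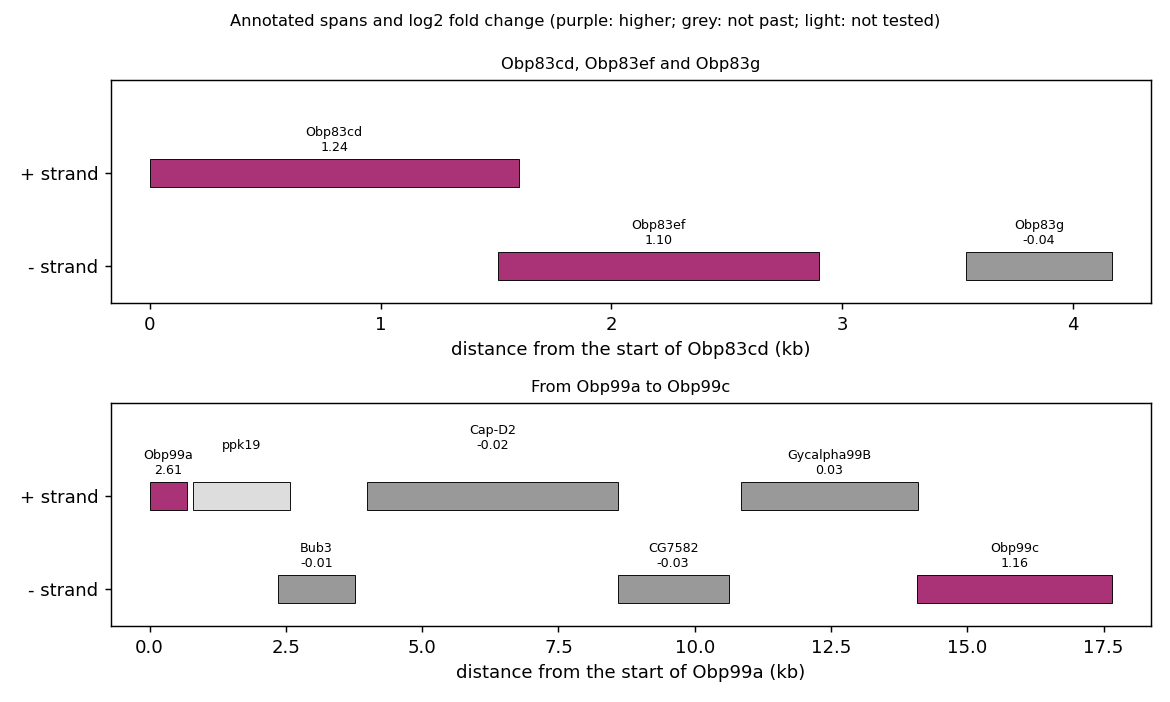
Annotated gene spans by strand (y) against distance in kilobases (x) from the start of Obp83cd (top) and of Obp99a (bottom), each with its log2 fold change where tested. Purple spans rose, grey spans did not pass and the light span was not tested; Obp83cd and Obp83ef overlap at their ends, and grey genes lie between Obp99a (2.61) and Obp99c (1.16).

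Obp44a, by far the most abundant member, did not pass the test. Its mean went from 2149 ± 393 to 2535 ± 119 FPKM (n = 3 each, SD), or 0.25 ± 0.15 on the log2 scale (SE; limma, adjusted p = 0.404), and supplemented food replicate 2 lay below normal food replicate 1. Obp18a had 93.8, 70.1 and 94.4 FPKM on normal food and 86.1, 89.1 and 85.9 on supplemented food, which overlap throughout (limma, adjusted p = 0.92). In Obp44a, Obp99c, Obp18a, Obp99a and Obp19d, normal food replicate 2 was the lowest normal food library. Over all members tested that library was the lowest of its food in 48%, close to the 51.3% of all genes tested.

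The summed FPKM of the family was 2785, 1954 and 2604 on normal food, against 3184, 2876 and 3095 on supplemented food. Without Obp44a the sums were 331, 248 and 317 against 549, 472 and 527 FPKM. All supplemented food sums lay above all normal food sums in both cases, and the exact permutation test gave p = 0.1 for each (two-sided), the smallest that 3 against 3 libraries allow. Obp99c and Obp99a, both already called, supplied 161 and 51.8 FPKM of the difference in means without Obp44a. The other 46 members summed to 176, 136 and 163 FPKM on normal food and 164, 165 and 159 on supplemented food, which overlap.

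The members best known from antennae did not pass the test. Obp83a and Obp83b, proteins of pheromone- and odour-sensing hairs that lie side by side on 3R, had 1.33 ± 0.34 and 0.972 ± 0.27 FPKM on normal food and 1.60 ± 0.37 and 1.51 ± 0.22 on supplemented food (SD, n = 3 each). Their adjusted p-values were 0.603 and 0.179 in limma. Obp28a, an abundant protein of the antenna, was near the filter with 0.494 and 0.912 FPKM, and Obp84a had 2.39 and 2.50 FPKM. Obp69a, which takes part in the response to a male pheromone, had 2.36 and 2.28 FPKM. Obp19d stood higher, at 19.1, 8.98 and 13.0 FPKM on normal food and 19.2, 15.6 and 16.4 on supplemented food, with overlap between the foods (limma, adjusted p = 0.481).

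In the run of 4 members on X, Obp19a and Obp19c also stayed below the threshold. Obp19c had 0.208, 1.05 and 1.20 FPKM on normal food and 1.68, 1.66 and 2.27 on supplemented food. Its foods did not overlap, but normal food replicate 1 lay far under the others (log2 fold change 0.70 ± 0.24, SE; limma, adjusted p = 0.168). Obp19a had means of 0.583 and 0.846 FPKM.

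Obp49a, which suppresses sweet taste when bitter compounds are bound, had 3.64 ± 0.92 FPKM on normal food and 2.98 ± 0.25 on supplemented food (n = 3 each, SD; limma, adjusted p = 0.505). Obp57e, a member of the taste-hair group, had 0.367 and 0.685 FPKM, and Obp57c had 0.983 and 1.24 FPKM. Obp57b had 0.87, 0.58 and 0.623 FPKM on normal food and 0.337, 0.35 and 0.245 on supplemented food. It passed the filter only through normal food, so its p-value is not given, although it is counted among the members tested. Obp8a, known from seminal fluid, had close means of 9.38 ± 0.42 and 9.67 ± 0.68 FPKM (SD, n = 3 each).

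Apart from Obp57b, the members that were lower without overlap on supplemented food lie in the Obp56 run on 2R. Obp56d (FBgn0034470, 2R, 19702924 to 19703915, minus strand) is widely found in olfactory and taste organs. It had 21.1, 16.6 and 13.3 FPKM on normal food and 5.74, 10.3 and 7.12 FPKM on supplemented food. Every supplemented food value lay below every normal food value, with a wide spread within each food. Its log2 fold change of -1.06 ± 0.23 (SE) missed the threshold in limma (adjusted p = 0.06). Without supplemented food replicate 2 it passed, with a log2 fold change of -1.26 and an adjusted p of 0.041, and it was also lower in the authors' p-values (below).

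Obp56a, in the same run, had 7.49, 6.98 and 6.93 FPKM on normal food and 6.07, 6.63 and 5.28 FPKM on supplemented food, also without overlap (log2 fold change -0.22 ± 0.08, SE; limma, adjusted p = 0.205). Obp56e had close means of 0.803 and 0.747 FPKM. Obp56h, a member linked to male mating behaviour, had 2.78 ± 0.09 and 3.35 ± 0.88 FPKM (n = 3 each, SD; limma, adjusted p = 0.512). Within 20000 bases of Obp56d, 1 gene outside the family was tested, a long noncoding RNA with 2.84 and 2.16 FPKM, and it did not pass.

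The authors' deposited table gives a second measure, mean normalized counts per food with no value per library. Of the 25 tested members, 24 had counts on both foods, and in all 24 the ratio of counts lay on the same side of 1 as the ratio of FPKM means. In that table Obp99a went from 178 to 1138 normalized counts, a ratio of 6.40, Obp99c from 2551 to 5638, Obp83cd from 67.5 to 206 and Obp83ef from 58.5 to 161. The authors' deposited table lists smaller folds than the ratios of its own means, 3.27 for Obp99a, 1.88 for Obp99c, 2.28 for Obp83cd and 2.03 for Obp83ef. Its p-values, adjusted over the same 10366 genes, called the same 4 members higher, against 8.2% of all genes, and 1 member lower, Obp56d, against 8.7% of all genes (16.9% in both directions together). Obp56d went from 343 to 154 normalized counts in the authors' deposited table.

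**Figure D4:**
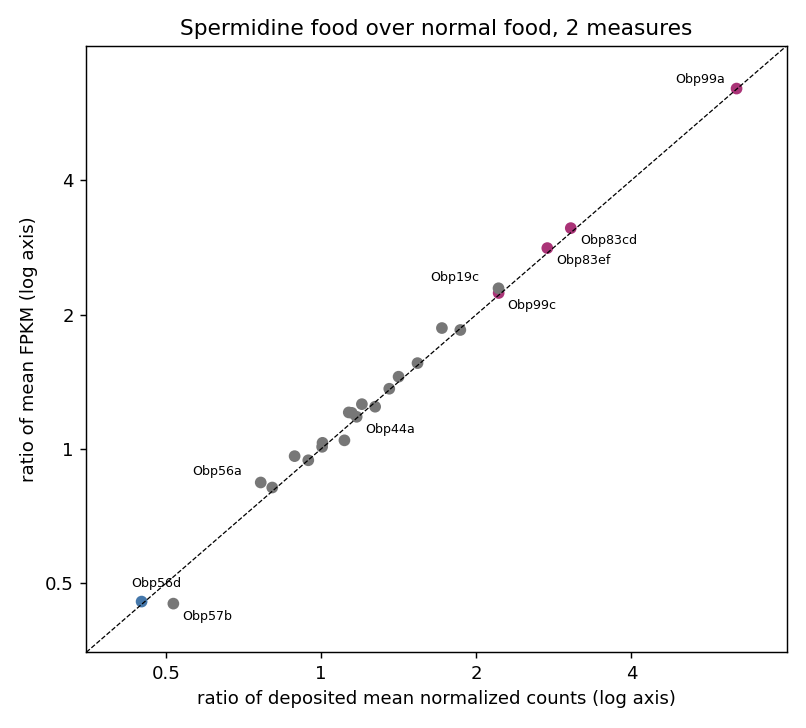
Ratio of mean FPKM (y) against ratio of the authors' mean normalized counts (x), spermidine food over normal food, both on log axes, for the 24 tested members with counts on both foods; the dashed line marks equal ratios. Purple points rose in limma (Obp99a at 6.42 and 6.40), the blue point is Obp56d, lower in the authors' p-values alone, and grey points passed neither test.

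The 2 measures differed on presence in 3 members that share exons with another gene, and in Obp46a, which overlaps no gene. Obp46a was at 0 FPKM in every library but had mean counts of 0.31 on normal food and 0.32 on supplemented food. In the table, 13 members overlap the span of at least 1 other gene, in all but Obp85a on the opposite strand. Beside the pairs named here, Obp51a overlaps hbs, Obp59a overlaps CG30259, Obp69a overlaps CG32104, Obp73a overlaps Cpr73D and Obp85a overlaps CG45263. Obp47b, Obp56e and Obp93a had FPKM values above 0 but mean counts of 0 on both foods, and the exons of these genes overlap by 611, 449 and 492 bases with CG7741, asRNA:CR44509 and CG5793. Over the whole table, 87 of 88 genes of at least 0.5 FPKM whose exons lie wholly inside exons of the other strand had mean counts of 0 on both foods, against 2.79% of 6764 genes with no such overlap. That class does not include the 3 members. Obp47b shares all its 611 exon bases but had a mean below 0.5 FPKM, and Obp56e and Obp93a share only part of their 532 and 591 exon bases. The levels of Obp44a (205 shared bases with Pabp2) and of Obp84a (663 shared exon bases with Dtwd2) carry the same uncertainty, as do those of Obp83cd and Obp83ef over their 92 shared bases.

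Other genes of the chemical senses did not pass in limma with all libraries. Of 49 olfactory receptor and co-receptor genes, 9 were tested and none passed (limma; none at an unadjusted p under 0.05 and none by the authors' p-values), and 37 lay below 0.5 FPKM in every library. Orco, the shared co-receptor of olfactory neurons, had 1.34 FPKM on normal food and 1.07 on supplemented food. Of 28 taste receptor genes 10 were tested and none passed, 1 of them at an unadjusted p under 0.05 and none by the authors' p-values. Of 29 antennal and gustatory support genes 11 were tested and none passed (limma; 2 at an unadjusted p under 0.05), while the authors' p-values call 1, Snmp2, a membrane protein of support cells, with 3.93 and 2.67 FPKM. Without normal food replicate 1, 1 gene of this list was higher. Os-C, an antennal secreted protein, had 0.802 and 1.36 FPKM. The summed level of that list was 188, 89.4 and 142 FPKM on normal food and 135, 165 and 161 on supplemented food, so the groups overlapped. The related gene lush, an alcohol- and pheromone-binding member without an Obp symbol, was below 0.25 FPKM in every library.

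Among secreted lipid carriers, 15 of 19 genes in the table were tested, and 3 rose and none fell. These were Apoltp, a lipid transfer particle protein, with 13.4 ± 1.77 and 26.8 ± 4.04 FPKM, Npc2g, a sterol-binding protein of the Npc2 family, with 25.2 ± 5.54 and 49.9 ± 7.55 FPKM, and Karl, a lipocalin, with 3.29 ± 0.49 and 5.73 ± 0.88 FPKM (SD, n = 3 each). The count was 0 without normal food replicate 2 and 0 without supplemented food replicate 3. At an unadjusted p under 0.05, 7 of the 15 genes passed in limma, and 6 passed by the authors' p-values.

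Part of the fat body list was higher on supplemented food, as the 4 members were. Of its 14 genes 10 were tested, and 5 rose and none fell: fit, the 3 yolk protein genes and Apoltp. Without supplemented food replicate 3 the count was 3. At an unadjusted p under 0.05, 8 of the 10 genes passed in limma, and 7 passed by the authors' p-values. The summed level was between 1933 and 2527 FPKM on normal food and between 9666 and 10721 on supplemented food. Most of it came from the 3 yolk protein genes, and Fbp2 was at 0 in every library. The other 5 genes tested did not pass in limma after adjustment, and library values of the genes Lsp1beta and to overlapped between the foods. Lsp2, a storage protein of the fat body, had 1.22, 2.67 and 0.814 FPKM on normal food and 319, 14.5 and 184 on supplemented food. Within supplemented food, 7 of the 10 genes tested were lowest in replicate 2, and the other 3 (Yp2, Apoltp and apolpp) were highest there. The 4 members were also lowest there, Obp99a and Obp83ef by little (59.3 against 60.6 FPKM in replicate 1, and 4.39 against 4.57 in replicate 3). The share of all genes lowest in that library was not computed, and the shared order was not tested. Yp2 had 3570, 4061 and 4033 FPKM on supplemented food. The part of fat body RNA in the rises of the 4 members was not tested. For the eye genes, normal food replicate 2 had a summed level within the range of supplemented food, and there Obp99a, Obp99c, Obp83cd and Obp83ef had 6.15, 106, 1.72 and 1.69 FPKM, below every supplemented food library. This is 1 library, and it was the lowest normal food library in 51.3% of all genes tested. The part of eye RNA in the rises was not tested.

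No gene of the 14 glia markers passed (limma; 4 at an unadjusted p under 0.05 and 3 by the authors' p-values; 1 higher without normal food replicate 2, and 1 without supplemented food replicate 2), and repo, which marks glial nuclei, had 49.4 and 50.4 FPKM. Among the other lists, 2 of 11 neuron markers fell (Syn and Gad1) and 1 of 11 haemocyte markers tested rose (Sr-CI). The neuron count was 0 with any 1 library left out, 4 with median-ratio scaling and 9 by the authors' p-values. The haemocyte count was 0 in 5 of the 6 fits that leave out 1 library, all but that without normal food replicate 1, and 5 by the authors' p-values. None of 5 cuticle genes or 16 photoreceptor and eye genes tested passed, with 2 and 0 at an unadjusted p under 0.05 and 1 each by the authors' p-values. The median log2 fold change was -0.19 over these cuticle genes and 1.23 over these eye genes. Without supplemented food replicate 2, 1 cuticle gene was higher. Of 10 muscle markers tested none passed in limma, 1 at an unadjusted p under 0.05 and 1 by the authors' p-values. Their mean on the log2(FPKM + 1) scale was 4.28, 2.96 and 3.51 on normal food and 2.79, 3.74 and 3.42 on supplemented food. Within supplemented food this mean stood in the same order as Obp56d, lowest in replicate 1 and highest in replicate 2. Within normal food both were highest in replicate 1, but the muscle mean was lowest in replicate 2 and Obp56d in replicate 3. The part of muscle RNA in the lower values of Obp56d was not tested.

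**Figure D5:**
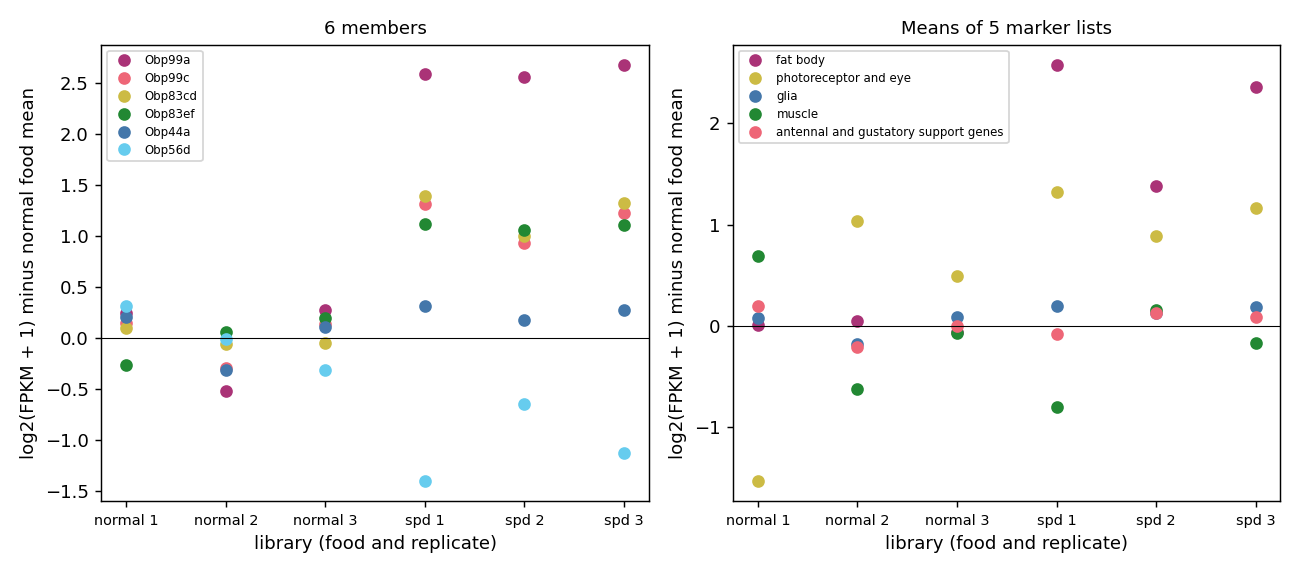
Log2(FPKM + 1) minus the mean of the normal food libraries (y) in each library (x) for 6 odorant-binding protein genes (left) and for the means of 5 marker lists over their tested genes (right). Obp99a, Obp99c, Obp83cd and Obp83ef lie near 1 or above in the 3 spermidine food libraries, as do the fat body and eye lists. The eye list is lowest in normal food replicate 1.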

How the data were processed

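Brains were dissected by hand, RNA was extracted with Trizol and libraries were made with a stranded mRNA kit, per the labels' protocols. The submitters' processing notes list HTSeq, Cufflinks and DESeq but neither their versions nor what each was used for. No aligner is named in the sources used here. Gene models came from Ensembl build 82, per the file headers. Positions are those of the deposited table, and 48 of the 49 members have the same span in Ensembl release 115, which gave exons and protein lengths. The FPKM values per library are as the authors deposited them, all with status OK for the members. The deposited mean normalized counts per food are a signal given only as a mean, the deposited fold change is a signed score, and the authors' p-values are unadjusted.

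Since no counts of single libraries were used, limma (version 3.58.1, R 4.3.3) was fitted to log2(FPKM + 1) with an intensity trend and no covariates, two-sided, with Benjamini-Hochberg adjustment over 10366 genes and a threshold of 0.05. Fold changes on that scale understate changes of low genes. Genes tested had a usable status in every library and at least 0.5 FPKM in at least 3 libraries. An exact permutation test of 3 against 3 cannot go below 0.1. The model was tested on simulated libraries. The members, lists, filter and tests were chosen with earlier results of these data known. All members are accounted for by rule, with library values for those past the threshold in limma or in the authors' adjusted p-values, and the 3 members of highest mean, genes that overlap a member and up to 4 genes of smallest p in each other list could be named. Neighbouring genes, and others named beside a member, were chosen after their values were seen.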

Additional observations from a re-analysis of the deposited data

How the results depend on the processing

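The 4 rises in the family kept their direction under all 14 alternatives tried. Log2 fold changes ran from 1.71 to 2.74 for Obp99a and from 0.91 to 1.27 for Obp99c. They ran from 1.16 to 1.58 for Obp83cd and from 0.97 to 1.47 for Obp83ef. The low ends for Obp99a and Obp99c are the authors' deposited folds of 3.27 and 1.88 on the log2 scale, not limma fits. The calls lost when 1 library was left out are given with each gene. The number of members past the threshold ranged from 1 to 5 with 1 library left out, and was 2 at a threshold of 0.01. Over all genes, 491 passed, against 261 without a filter on low values, 257 with the replicate number as a block, 1752 by the authors' p-values, 978 at a threshold of 0.1, 76 at a threshold of 0.01, and 55 (without supplemented food replicate 3) to 322 with 1 library left out. The block brought the neuron count to 0, as did no filter and no trend, and the haemocyte count to 2. It changed no call among the members, and the replicate numbers did not pair the libraries, with correlations of deviations of -0.051, -0.103 and 0.018 between libraries of the same number. The summed FPKM of the family was higher on supplemented food by 217 FPKM without Obp44a, against 604 with it. With 1 library left out, 8 members that had not passed changed sign, none of them past the threshold. Their log2 fold changes ranged from -0.11 to 0.10 for Obp18a, -0.16 to 0.060 for Obp56e, -0.059 to 0.39 for Obp57c, -0.16 to 0.080 for Obp69a, -0.17 to 0.037 for Obp83g, -0.10 to 0.19 for Obp84a, -0.0099 to 0.080 for Obp8a and -0.15 to 0.50 for Obp99b. The causes were not tested. The count-based tests that had been planned were not run, since no counts per library were used here. Obp83cd and Obp83ef rest on mean normalized counts of 67.5 and 58.5 on normal food in the authors' deposited table.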
